A study of Mus musculus with 8 samples.

Results

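Cited1, Cited2 and Cited4 make up the Cited family of transcriptional coregulators, and the arrays measured their RNA in kidneys of mouse embryos (embryonic day 16.5). The probes were those whose RefSeq accession names 1 of these 3 genes, out of 20887 genes named on the array. Cited1 and Cited4 each had 1 probe and Cited2 had 2, so that there were 4 probes with 1 spot each. Cited1 was selected on its log2 ratios, which gave it the largest decrease of all genes in knockout against wildtype kidneys, and the other two were taken as its relatives. The differences of the 3 genes between the groups are therefore given as a description, with no p-value.

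The knockout group (KO) held 4 pairs of kidneys of C57BL/6 embryos with a conditional deletion of Dot1, taken here as Dot1l, a histone H3 methyltransferase, from Six2-positive nephron progenitor cells. The control group (WT) held 4 pairs of kidneys of wildtype C57BL/6 embryos of the same age. Whether the WT embryos carried the Cre driver was not given in the sources used here. The deletion concerns cells that express Six2 and their descendants, and a whole kidney also holds stroma, ureteric bud, vessels and blood, which the labels do not name as targets. Each sample was labelled red (Cy5) and hybridised with the same green (Cy3) RNA of the WT1 kidneys. A log2 ratio below thus compares a sample with WT1 RNA, and the WT1 array compares WT1 RNA with itself.

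Cited proteins carry no DNA-binding domain of their own. They bind the acetyltransferases CBP and EP300 through an acidic stretch at their C terminus and bring them to, or keep them from, DNA-bound factors such as TFAP2, SMAD and hypoxia-inducible factors. In the developing kidney, Cited1 marks the least differentiated cells of the cap mesenchyme, the progenitor pool that surrounds the ureteric bud tips. It is switched off before these cells form nephrons, while Six2 stays on for longer. Cited2 is widely expressed and is needed in mice for the heart, the neural tube and the adrenal gland. Cited4 is known from mammary epithelium and heart muscle.

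Before the members are described, 3 features of the arrays need stating. Median red signal of negative-control spots was 478.2 scanner units on the KO1 array and 1361 on the WT1 array, against 58 to 61 on the other 6 arrays, and list genes whose call changes without KO1 and WT1 are therefore named with that value. The Y chromosome gene Ddx3y read 2.31, 2.90, 3.19 and 3.15 on the KO1 to KO4 arrays (log2 ratio), and -0.11, 3.29, 0.08 and -0.11 on the WT1 to WT4 arrays. By this marker the 4 KO pairs and WT2 stand together, and these 5 arrays were also the low ones for Xist, which coats the inactive X. Sex by these markers thus ran almost with group, since WT2 was the only WT array on the KO side. The part of sex in the gene calls below was not tested. All KO arrays lay in row 2 of the slide and all WT arrays in row 1, so that row and group cannot be told apart. The Dot1l probe lay between -0.21 and -0.04 in KO and between -0.23 and -0.09 in WT, and since its place relative to the deleted part was not analysed here it does not check the labels. The 12 kidney genes used to check the tissue, from Six2 and Wt1 to Nphs1, Umod and Aqp2, each had a probe well above background on 6 to 8 arrays. Among them the stromal marker Pdgfra rose in KO, as given beside the cap mesenchyme list.

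The start regions of the 3 genes are shown because Cited1 stood far from Cited2 and Cited4 in these kidneys. The sequences run from 250 bases before to 50 bases after the start, are taken from RefSeq (GRCm38.p6), and are written 5′ to 3′ on the strand of the gene. Capitals mark matches on either strand to TATAAA, the core promoter motif, to CCAAT, the core of the NF-Y site, and to ACGTG or GCGTG, cores of sites for hypoxia-inducible factors. The Cited1 region, the most upstream of 3 annotated starts, is chrX:102252132-102252431 on the minus strand.
Cited1: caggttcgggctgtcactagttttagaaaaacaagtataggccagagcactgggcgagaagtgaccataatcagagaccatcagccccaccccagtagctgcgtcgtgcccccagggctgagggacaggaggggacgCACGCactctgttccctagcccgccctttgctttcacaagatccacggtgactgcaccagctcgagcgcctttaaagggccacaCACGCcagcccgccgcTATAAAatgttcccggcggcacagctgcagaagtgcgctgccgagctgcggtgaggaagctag
The Cited2 region is chr10:17722978-17723277 on the plus strand.
Cited2: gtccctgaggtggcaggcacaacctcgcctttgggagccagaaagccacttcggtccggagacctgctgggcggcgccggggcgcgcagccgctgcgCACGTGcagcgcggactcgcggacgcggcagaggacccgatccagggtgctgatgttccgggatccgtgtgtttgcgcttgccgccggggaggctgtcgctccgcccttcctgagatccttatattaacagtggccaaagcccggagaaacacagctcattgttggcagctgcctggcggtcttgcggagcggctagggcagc
The Cited4 region is chr4:120666313-120666612 on the plus strand.
Cited4: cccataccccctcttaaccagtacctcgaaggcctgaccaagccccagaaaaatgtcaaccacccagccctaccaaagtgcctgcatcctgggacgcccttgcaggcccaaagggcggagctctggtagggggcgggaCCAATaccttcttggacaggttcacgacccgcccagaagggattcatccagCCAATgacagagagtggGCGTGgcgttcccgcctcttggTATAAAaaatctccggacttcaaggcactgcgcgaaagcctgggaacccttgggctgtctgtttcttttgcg
TATAAA was found in the Cited1 and Cited4 regions and in 13.6% of 32851 mouse start regions of this length. CCAAT was found at 2 places in the Cited4 region and in 37.4% of all regions. ACGTG was found in the Cited2 region, on both strands of the same 6 letters CACGTG, and in 19.6% of all regions. GCGTG was found in the regions of Cited1, at 2 places on the opposite strand, and of Cited4, at 1 place, and in 32.4% of all regions. The other 2 annotated starts of Cited1 differ from the one shown: the next holds TATAAA and also CCAAT on the other strand with 1 match to ACGTG, and the last holds none of the 4 motifs. These are matches of letters and not sites, and the arrays measured no binding to them.

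Cited1 was far lower in KO kidneys. Its log2 ratios were -2.68, -2.50, -2.76 and -2.56 on the KO1 to KO4 arrays, and -0.06, 0.14, 0.02 and 0.29 on the WT1 to WT4 arrays. The groups did not overlap, with a gap of 2.44 between the highest KO and the lowest WT array. The means were -2.63 ± 0.12 in KO and 0.10 ± 0.15 in WT (SD, n = 4 each), so that Cited1 differed by -2.72 ± 0.10 on the log2 scale (moderated SE), which is 6.60-fold lower in KO. The difference is many times the SD of either group. Among the 13981 genes tested, Cited1 ranked 1 from the lowest, which is the reason it was chosen.

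The low Cited1 ratio in KO came from the red signal. The raw red spot signal was 7658, 5592.5, 2600 and 5827 units on the KO1 to KO4 arrays, and 40558, 28801, 27388 and 47386 units on the WT1 to WT4 arrays. Even the brightest KO spot was below the dimmest WT spot before any normalization. The green signal, which came from the same WT1 RNA everywhere, was 10160 to 10861 units on the KO arrays and 9683 to 12737 units on the WT arrays, with a coefficient of variation of 8.74% over the 8 arrays. The single Cited1 probe remained well above background in red on all 4 KO arrays, so that some signal was still measured there in KO kidneys. Whether all of that signal was Cited1 RNA was not tested. The scanner software's own error of the log10 ratio was 0.0934 to 0.0993 on the KO arrays and 0.0614 to 0.0619 on the WT arrays. In bulk tissue, fewer Cited1-positive cells and less Cited1 RNA in each cell cannot be told apart.

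**Figure D1:**
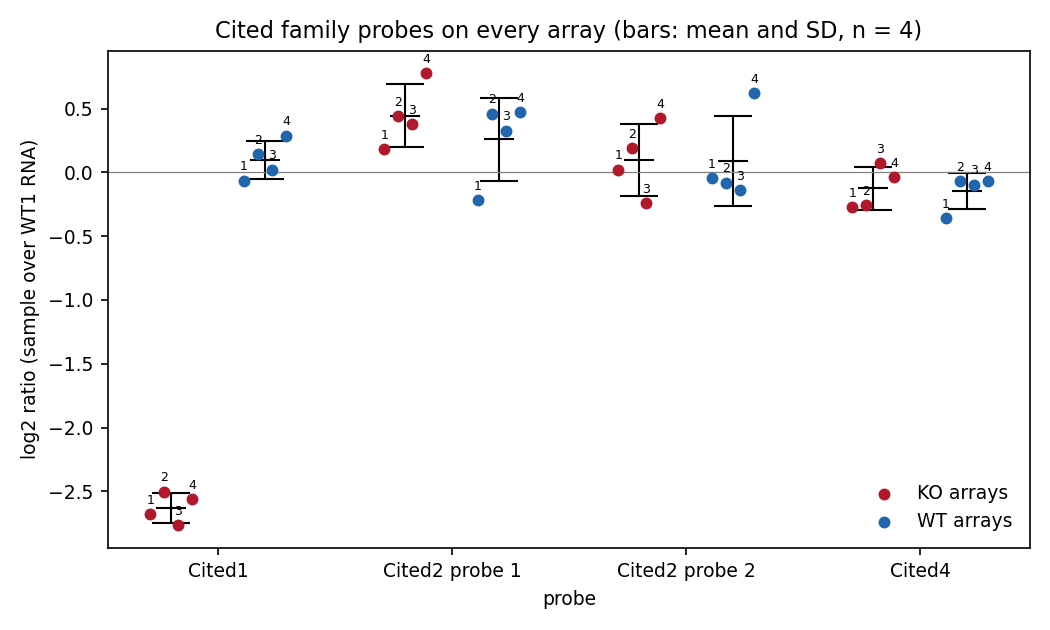
Log2 ratio of each array over WT1 RNA for the 4 Cited probes, KO left of WT, with small numbers for the replicate and black bars for mean and SD (n = 4). Cited1 lies between -2.76 and -2.50 on the KO arrays and between -0.06 and 0.29 on the WT arrays, while the groups overlap at the other 3 probes.

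Cited1 lies on the X chromosome and the embryos differed in sex, so the WT array that stands with the KO arrays was looked at by itself. Cited1 was 0.14 in WT2, inside the range of -0.06 to 0.29 of the other WT arrays, and the KO mean minus WT2 was -2.77 on the log2 scale. The 470 tested genes of the X chromosome had a median difference of 0.06, against 0.03 over all genes. Of these 470 genes, 17 passed the test over all genes (limma, Benjamini-Hochberg adjusted p under 0.05), which is 3.62%, against 2.12% of all genes.

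Cited2, the hypoxia-inducible relative that competes with HIF1A for EP300, did not follow Cited1. At its brighter probe the log2 ratios were 0.18, 0.44, 0.38 and 0.78 on the KO1 to KO4 arrays, and -0.22, 0.46, 0.33 and 0.47 on the WT1 to WT4 arrays. The KO values spread around the WT values, with KO4 the highest and WT1 the lowest array. The means were 0.44 ± 0.25 in KO and 0.26 ± 0.33 in WT (SD, n = 4 each), and the difference of 0.18 ± 0.16 (moderated SE) was smaller than the SD of either group. It was 0.03 without WT1, 0.07 without KO4, 0.11 without KO1 and WT1 together, and -0.02 against WT2 alone. Cited2 was among the more variable genes within groups: its pooled SD was 0.29, exceeded by 4.89% of tested genes, against a median of 0.14.

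The dimmer Cited2 probe gave log2 ratios of 0.02, 0.19, -0.24 and 0.42 on the KO1 to KO4 arrays, and of -0.04, -0.08, -0.14 and 0.62 on the WT1 to WT4 arrays. KO4 and WT4 were the highest of their groups, and the groups overlapped, with a difference of 0.01 ± 0.17 (SE). Red signals at this probe ran from 101.5 to 238 units in the KO2, KO3 and KO4 arrays, and KO1 read 539, where the spot was not well above background. They ran from 130 to 374 units in the WT2, WT3 and WT4 arrays, but WT1 read 8729.5. The green signal of this probe, from the same RNA, was 56 to 129 units on the KO arrays and 64 to 78 units on WT2 to WT4, but 2441 on WT1. Both colours were thus raised together on the WT1 array at this spot, and its log2 ratio there was near 0. Both Cited2 probes are annotated with the same accession.

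Cited4, the third member, was at a like ratio in both groups. Its log2 ratios were -0.27, -0.26, 0.07 and -0.04 on the KO1 to KO4 arrays, and -0.36, -0.07, -0.10 and -0.07 on the WT1 to WT4 arrays. The groups overlapped throughout, and KO1, KO2 and WT1 were the low arrays. The means were -0.12 ± 0.17 in KO and -0.15 ± 0.14 in WT (SD, n = 4 each), a difference of 0.03 ± 0.11 (moderated SE). A larger difference in either direction was found in 85.4% of tested genes. Raw red signals were 1596 to 3464 units in KO and 2073 to 6179.5 units in WT, and the spot was well above background on all 8 arrays.

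On the WT1 array both colours held the same RNA, so a ratio of 0 is the true value there, on an array with high background. Cited1 was at -0.06 there, Cited2 at -0.22 and Cited4 at -0.36. The SD of all tested genes on this array was 0.19, and 73.2%, 27.3% and 8.43% of genes lay at least as far from 0 as Cited1, Cited2 and Cited4. Of the 3 genes, Cited1 alone had groups that did not overlap, which 9.26% of all tested genes showed (2.45% with KO lower and 6.8% with KO higher). Since Cited1 was selected on this contrast, nothing is read from that count.

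**Figure D2:**
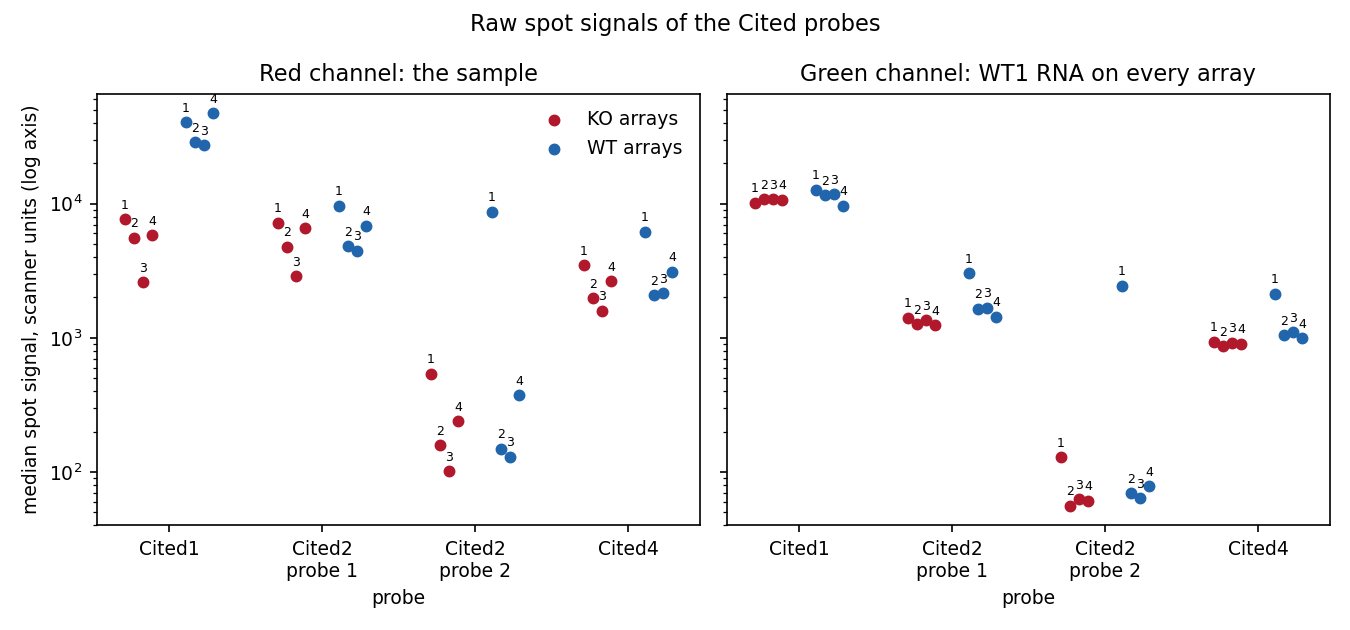
Raw median spot signals in scanner units (log axis) of the 4 Cited probes, red on the left and green on the right, KO left of WT in each pair, with the replicate number at each point. Red Cited1 signal is 2600 to 7658 in KO and 27388 to 47386 in WT, the green signals of Cited1 are alike, and the WT1 array stands apart in both colours at the second Cited2 probe.

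Over 8 arrays Cited1 had r = -0.288 with Cited2 and r = -0.081 with Cited4, values that hold the group difference on which Cited1 was selected. After the group means were taken off, r was 0.699 between Cited1 and Cited2 and 0.141 between Cited1 and Cited4. Cited2 and Cited4 had r = 0.693 over 8 arrays and 0.708 within the groups, but 0.073 over the 6 arrays without KO1 and WT1. All arrays share the green RNA and the slide, so these are not independent points.

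The genes whose log2 ratios ran most like those of Cited1 over the 8 arrays were R3hdml (r = 0.993), Traf1 (0.990), Camkv (0.981), Lfng (0.975), Uncx (0.970), Mtfp1 (0.967), Capn6 (0.967) and Elavl4 (0.966). All 8 were lower in KO on average, since the group difference makes up most of such a correlation. Their sizes differed widely: Traf1, a signalling adaptor of TNF receptors, had a difference of -1.52, the homeobox gene Uncx of -1.11 and R3hdml of -1.09, while Camkv was at -0.35 and Mtfp1, a mitochondrial fission factor, at -0.21. Within the groups, after their means were taken off, r was 0.743 for Mtfp1, 0.606 for Uncx and 0.582 for Capn6, but 0.081 for Traf1. R exceeded 0.9 in 86 of 13960 genes for Cited1.

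For Cited2 the most alike genes were Anapc16 (r = 0.971), Slc16a13 (0.967), Tor1aip1 (0.965), Pagr1a (0.965) and Krtcap2 (0.964), with differences between 0.05 and 0.11. For Cited4 they were Papss2 (0.956), Cln3 (0.954), Hagh (0.953), the nuclear receptor gene Ppard (0.952) and Rgs20 (0.948), with differences between -0.03 and 0.12. WT1 was the lowest array in each of these 10 genes. Over the 6 arrays without KO1 and WT1 their r was 0.851 to 0.939 for the Cited2 set and 0.868 to 0.929 for the Cited4 set.

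The neighbours of the 3 genes on their chromosomes were examined next, 5 annotated genes on each side. Beside Cited1, 4 of 10 were tested and none passed (limma adjusted p under 0.05; 1 at an unadjusted p under 0.05). They were the helicase gene Ercc6l (-0.19 ± 0.14, SE), the ribosomal protein gene Rps4x (-0.02 ± 0.10), the histone deacetylase gene Hdac8 (-0.09 ± 0.09) and Phka1, a subunit of phosphorylase kinase (0.19 ± 0.08). Cited1 was selected as the lowest of all genes, so that no neighbour could be lower than it. Beside Cited2, Txlnb, Heca and Abracl lay between -0.03 and 0.18. Beside Cited4, Scmh1, Ctps and Nfyc lay between -0.01 and 0.03. None of these 6 passed, nor had an unadjusted p under 0.05. Over all 13981 tested genes, 2030 had an unadjusted p under 0.05 (limma).

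Cited1 was then set beside the other genes of its compartment, a list that was made with earlier results of these data known. Of 25 cap mesenchyme genes, all of them tested, 10 fell and none rose in KO (limma adjusted p under 0.05), or 40.0%, where 0.544% of all tested genes were called lower, 1.57% higher and 2.12% in either direction. The list median was -0.23, against 0.03 over all genes. Since results of these data were known when the list was made, its share and median are descriptions, and no enrichment is read from them. The genes that fell were Meox2 (-1.93 ± 0.20, SE), Traf1 (-1.52 ± 0.09), Phf19 (-1.13 ± 0.15), Uncx (-1.11 ± 0.12), Capn6 (-0.98 ± 0.11), the matrix proteoglycan gene Spock2 (-0.78 ± 0.13), Tmem100 (-0.55 ± 0.10), the integrin gene Itga8 (-0.40 ± 0.09), Wt1 (-0.40 ± 0.09) and Hoxd11 (-0.37 ± 0.08). The Cited1 difference was larger than any of these, which was fixed in advance by its selection as the lowest of all genes. Hoxd11 passed in 4 and Itga8 in 2 of 19 alternatives, and neither passed without KO1 and WT1 (adjusted p = 0.109 and 0.0866).

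Meox2, a homeobox gene, had the largest difference within the cap mesenchyme list. It had log2 ratios of -1.19, -1.62, -2.24 and -1.94 on the KO1 to KO4 arrays, and of -0.11, 0.29, 0.07 and 0.48 on the WT1 to WT4 arrays (limma adjusted p = 0.000963, n = 4 each). Every KO array lay below every WT array, but the KO arrays spread more widely (SD 0.45) than those of Cited1. Its relative Meox1 differed by -0.37 (adjusted p = 0.0689). With the replicate number as a block Meox1 passed (adjusted p = 0.0468), and its adjusted p ranged from 0.02 to 1 over 19 alternatives.

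Six2 itself, the factor that keeps progenitors undifferentiated and marks the cells of the deletion, had log2 ratios of -0.34, -0.25, -0.30 and 0.05 on the KO1 to KO4 arrays, and of -0.26, 0.07, 0.01 and 0.19 on the WT1 to WT4 arrays. The groups overlapped, and the difference of -0.21 ± 0.12 did not pass (limma adjusted p = 0.439, n = 4 each). Cited1 minus Six2 on the same array was -2.61 to -2.25 in KO and 0.01 to 0.19 in WT. These Six2 values are those of its brighter probe. The dimmer Six2 probe read -0.035, -0.10, -0.19 and 0.15 on the KO1 to KO4 arrays. On the WT1 to WT4 arrays it read 0.04, 0.21, 0.01 and 0.35, so that the groups overlapped there too. Of the 15 listed genes that did not pass, Eya4, a relative of Eya1, differed by -0.39 ± 0.12 (adjusted p = 0.127), and it passed without KO1 and WT1 (-0.52, adjusted p = 0.0322). Fgf20, a survival factor of the progenitors, differed by 0.40 ± 0.15 (adjusted p = 0.234). Pax2 (-0.17 ± 0.08) and Bmp7 (-0.21 ± 0.08) did not pass, although their groups did not overlap. Further values were those of Eya1, the partner of Six2 (0.21 ± 0.16), the nephric zinc finger gene Osr1 (-0.06 ± 0.12), Sall1 (-0.09 ± 0.11), Gdnf, which draws in the ureteric bud (0.08 ± 0.11), and Crym (0.23 ± 0.11). The average log2 ratio over the 25 genes was -0.48 to -0.33 on the KO arrays and -0.11 to 0.15 on the WT arrays. Cited1 minus that average was -2.35 to -2.15 in KO and -0.02 to 0.14 in WT. Pdgfra, a marker of stroma, rose by 0.73 ± 0.11 (limma adjusted p = 0.00763) with groups that did not overlap. Umod, a gene of the loop of Henle, differed by 0.75 ± 0.20 without overlap but did not pass (adjusted p = 0.0886; 0.0284 with the replicate block). The part of these list and marker levels in the Cited1 value was not tested.

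**Figure D3:**
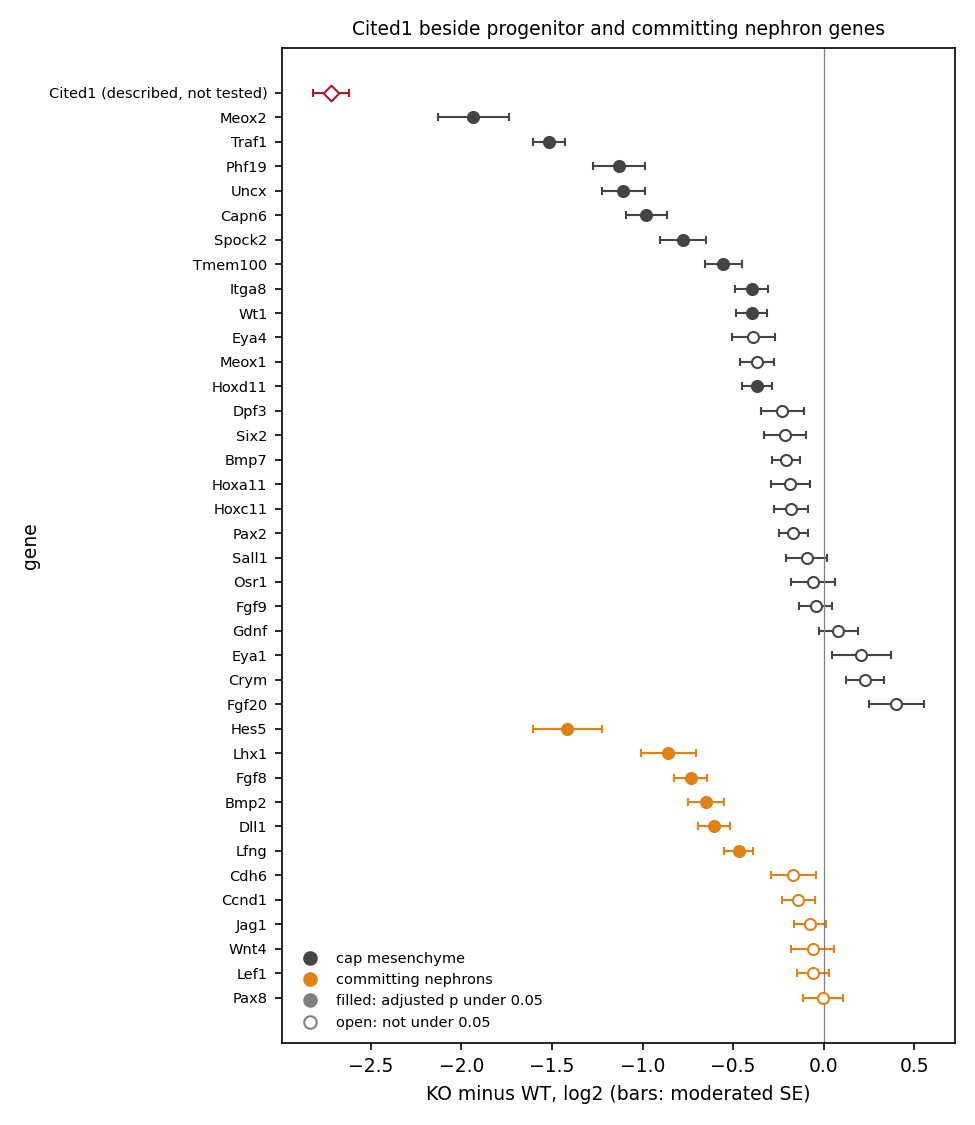
Difference KO minus WT on the log2 scale with moderated SE for Cited1 and for the tested genes of the cap mesenchyme and committing nephron lists, filled where the limma adjusted p was under 0.05. Cited1, selected as the lowest of all genes, lies at -2.72 and Meox2 at -1.93. Six2 lies at -0.21, and Osr1 and Gdnf lie close to 0.

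A further list, also made with earlier results of these data known, held 12 genes of cells that have left the Cited1-positive state and are forming nephrons. Of these 12 genes, 6 fell and none rose (limma adjusted p under 0.05), where 0.544% of all tested genes were called lower and 2.12% in either direction. The list median was -0.32, against 0.03 over all genes. For the same reason no enrichment is read from this count and median. The genes that fell were Hes5 (-1.42 ± 0.19, SE) and Lfng (-0.47 ± 0.08) of the Notch pathway, its ligand gene Dll1 (-0.60 ± 0.09), Lhx1 (-0.86 ± 0.15), Fgf8 (-0.73 ± 0.09) and Bmp2 (-0.65 ± 0.10). Wnt4, which induces the transition, was at -0.06 ± 0.12 and Pax8 at -0.00 ± 0.11. Lef1, at -0.06 ± 0.09, and Jag1, at -0.08 ± 0.09, did not pass either. The count was 0 with median centring, 0 with the red channel alone, 4 without KO4, and 2 with the scanner software's ratios without KO1 and WT1.

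These list counts depend on the arrays and the processing. The Cited1 difference, given below, is another kind of measure and is not set against the counts. Over all genes 296 passed (220 higher, 76 lower), and with the scanner software's ratios 123 did (73 higher, 50 lower). With the replicate number as a block 556 passed, and 11 of the cap mesenchyme genes were lower. The count over all genes was 141 without KO2, 83 without KO4, 187 without WT1, 150 without WT2 and 129 without WT4, and the cap mesenchyme count was 6 without KO2, without KO4 or without WT4. With median centring in place of loess no gene passed (178 at an unadjusted p under 0.05), and with the red channel alone 1 did (111 unadjusted). The Cited1 difference was -2.71 ± 0.41 and -2.43 ± 0.19 (SE) in these settings, against -2.72 ± 0.10 as reported, so that its SE was larger there.

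**Figure D4:**
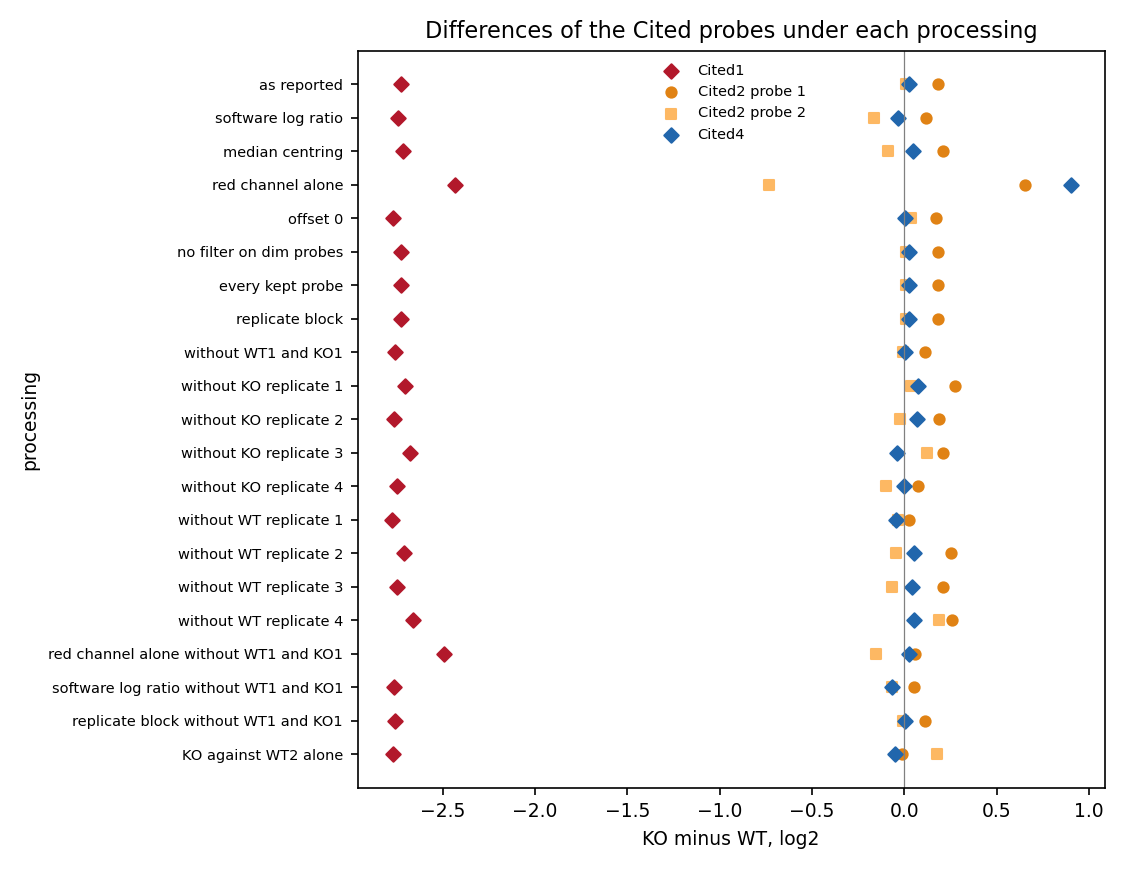
Difference KO minus WT on the log2 scale for the 4 Cited probes as reported and under each of 20 alternatives. Cited1 stays between -2.78 and -2.43, whereas the other probes lie around 0 except with the red channel alone, where Cited2 reads 0.65 and Cited4 0.90.

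With the red channel alone, Cited2 differed by 0.65 at its brighter probe and by -0.73 at the dimmer, and Cited4 by 0.90. In that setting, without KO1 and WT1, the same 3 values were 0.06, -0.15 and 0.03. The large values were thus seen only with these 2 arrays included. On the log2 red scale of that setting, WT1 read 10.06 at the brighter Cited2 probe, against 12.44 to 12.74 on the other arrays. At Cited4 WT1 read 7.88, against 11.35 to 11.65. At the dimmer Cited2 probe WT1 was the highest array (9.52) and KO1 the lowest (7.04). The direction of Cited2 and Cited4 is not settled by these data.

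Of 36 tested genes for known partners of Cited proteins, 1 passed the test, or 2.78%, close to the 2.12% called over all genes. At an unadjusted p under 0.05 (limma) there were 2030 of the 13981 tested genes. The unadjusted counts were 2 of 6 coactivators, 2 of 3 TFAP2 genes and 3 of 10 HIF pathway genes. They were 2 of 10 SMAD and TGF-beta genes and 2 of 7 other partners. Groups did not overlap for 2 genes in each of these 5 lists, against 9.26% of all tested genes. In each list both shares were above those over all genes, which was not tested. The partner genes were thus near the share of all genes by adjusted calls only. Among the coactivators, EP300 itself was not tested because its probes were dim, and none of the 6 tested passed (limma adjusted p under 0.05; 2 at an unadjusted p under 0.05). Crebbp, which encodes CBP, differed by 0.17 ± 0.12 (SE). The smallest p values were those of the nuclear receptor coactivators Ncoa2 (0.38 ± 0.11, adjusted p = 0.108, and 0.0443 to 1 over 19 alternatives, of which it passed in 1, without WT3) and Ncoa1 (0.31 ± 0.10, adjusted p = 0.164). Their list median was 0.13.

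TFAP2 proteins are the DNA-bound factors for which Cited proteins are best known as coactivators. Tfap2a differed by -0.33 ± 0.10 (limma adjusted p = 0.111), Tfap2b, a factor of distal tubule, by -0.25 ± 0.09 (adjusted p = 0.216) and Tfap2c by -0.15 ± 0.08, and the other 2 genes of the family were not tested. None of the 3 passed, and 2 had an unadjusted p under 0.05. All 3 were below 0, with a list median of -0.25 against 0.03 over all genes.

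In the HIF pathway, where Cited2 acts as a brake, none of 10 genes passed (limma adjusted p under 0.05; 3 at an unadjusted p under 0.05). Hif1a differed by 0.07 ± 0.16 (SE) and Epas1 by 0.18 ± 0.09. Hif3a, a further member of the factor family, was at 0.15, 0.27, 0.33 and 0.31 on the KO1 to KO4 arrays, and at -0.10, -0.01, -0.11 and -0.10 on the WT1 to WT4 arrays. These groups did not overlap, and the difference of 0.34 ± 0.08 was at the threshold (adjusted p = 0.05002). With the replicate block Hif3a passed (adjusted p = 0.0471), as it did in 3 of 19 alternatives, over which its adjusted p was 0.0427 to 1. Vhl, which marks HIF proteins for degradation, differed by 0.25 ± 0.09 (adjusted p = 0.214).

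Among the SMAD and TGF-beta genes, none of 10 tested passed (limma adjusted p under 0.05; 2 at an unadjusted p under 0.05). Smad4, with which Cited1 cooperates in reporter studies, differed by 0.15 ± 0.11 (SE). The receptor gene Tgfbr2 (0.31 ± 0.09, adjusted p = 0.117) and the ligand gene Tgfb3 (0.29 ± 0.09, adjusted p = 0.153) had the smallest p values. The list median was 0.10.

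The 1 partner gene that fell, among 7 tested genes for other factors tied to Cited proteins, was Wt1, which works with Cited2 in the adrenal primordium and is also a cap mesenchyme and podocyte gene. Its log2 ratios were -0.37, -0.43, -0.42 and -0.44 on the KO1 to KO4 arrays, and -0.15, -0.09, 0.14 and 0.03 on the WT1 to WT4 arrays (-0.40 ± 0.09, SE; limma adjusted p = 0.0354, n = 4 each). The groups did not overlap, but Wt1 did not pass when KO1, KO2, KO3, KO4, WT2, WT3 or WT4 was left out, and passed without WT1. Its adjusted p was 0.0212 to 1 over 19 alternatives, and it passed in 7. The others included Esr1 (0.20 ± 0.08), Ctnnb1, which encodes beta-catenin (0.20 ± 0.10), Ppara (0.25 ± 0.13) and Hnf4a (0.11 ± 0.11), none of which passed.

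**Figure D5:**
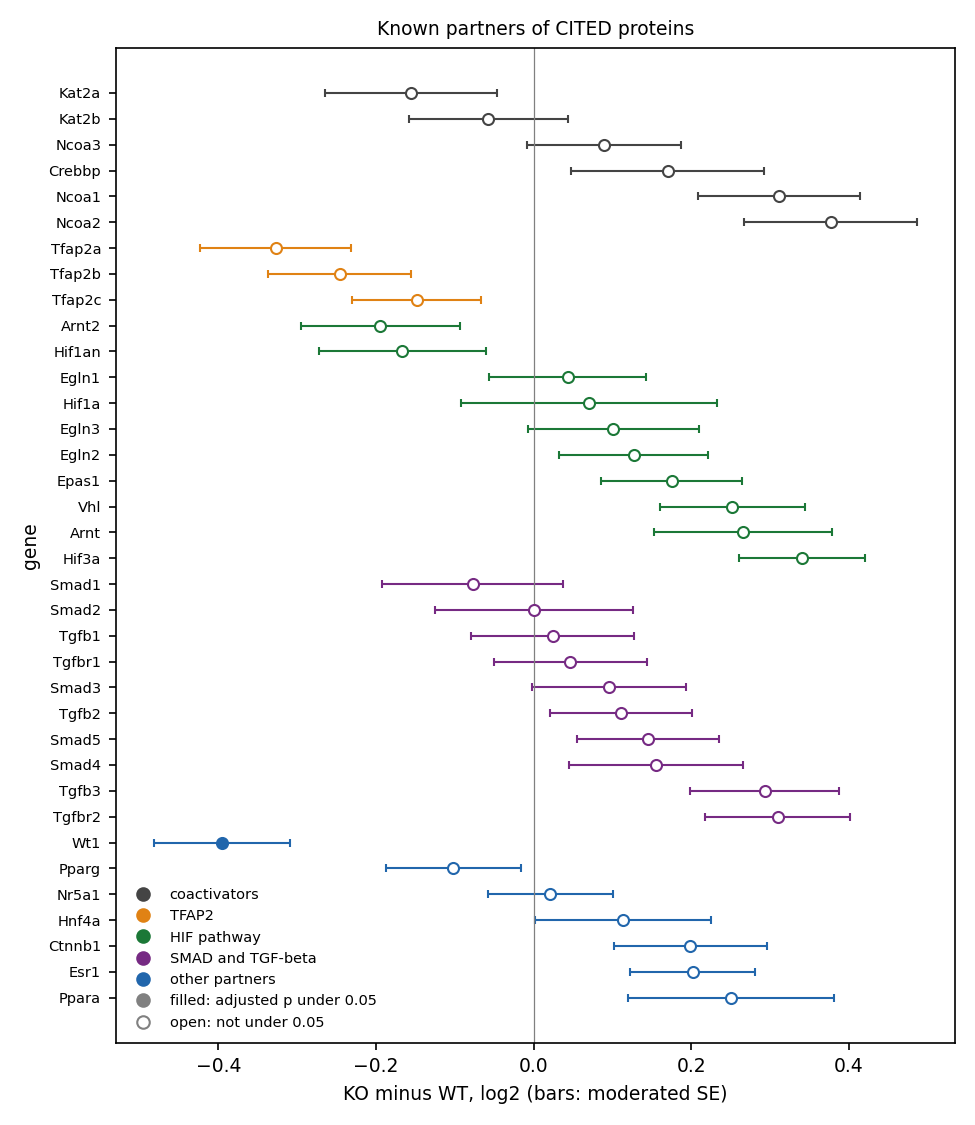
Difference KO minus WT on the log2 scale with moderated SE for the tested partner genes, coloured by list and filled where the limma adjusted p was under 0.05. Wt1 at -0.40 is the filled point, and the 3 TFAP2 genes lie left of 0.

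Other tissues that a dissected kidney could hold were checked because Cited2 is an adrenal gene. Of 12 adrenal and sympathetic genes 6 were tested and none passed (limma adjusted p under 0.05; 2 at an unadjusted p under 0.05). Their average log2 ratio was -0.00 to 0.06 on the KO arrays and 0.03 to 0.17 on the WT arrays. The defining steroid genes Star, Cyp11a1, Cyp11b1 and Hsd3b1 were too dim to be tested. Akr1b7 differed by -0.51 ± 0.13 (SE, adjusted p = 0.0614) and passed in 4 of 19 alternatives, over which its adjusted p was 0.0233 to 1. Without KO1 and WT1 it was at -0.66 and passed (adjusted p = 0.0306). Chga differed by 0.31 ± 0.13 (adjusted p = 0.292). The remaining tested genes were Nr5a1 (0.02 ± 0.08), Cyp21a1 (0.01 ± 0.09), Mc2r (-0.20 ± 0.10) and Th (0.06 ± 0.10). Of 7 tested erythroid genes none passed (2 at an unadjusted p under 0.05), and their average was -0.67 to 0.44 on the KO arrays and -0.32 to 0.39 on the WT arrays. With the replicate block Alas2, the enzyme of erythroid haem synthesis, passed (0.48, adjusted p = 0.0267), and so did Hba-a1 (0.39, adjusted p = 0.0235). Over 19 alternatives the adjusted p was 0.0267 to 1 for Alas2 and 0.0235 to 1 for Hba-a1. Hbb-bh1, an embryonic globin gene, differed by -0.54 ± 0.18 (adjusted p = 0.171, and 0.042 to 1 over 19 alternatives). The part of blood content in the values of Cited2 and Cited4 was not tested.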

How the data were processed

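Per the labels, 8 samples of total RNA from embryonic kidneys, 4 KO and 4 WT, were labelled with Cy5 and hybridised with Cy3-labelled WT1 RNA, with no dye swap. Spots were quantified in Agilent Feature Extraction 10.7.3.1, according to the submitters' processing notes. The deposited intensity columns used here are median spot signals and local backgrounds in red and green, with no normalization. The deposited log10 ratio of processed red over processed green, and the deposited error score of that ratio, come from the scanner software. The authors' deposited table of the series holds the same log10 ratios (differences of at most 0.497%), with a median of 0 in each column, so scale and direction are known.

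With R 4.3.3 and limma 3.58.1, signals were background-corrected (normexp, offset 50) and loess-normalized within arrays, with control spots at weight 0. Outlier spots were left out (1765, or 0.372%, none of a Cited probe) and no spot was saturated. Accessions were matched without version to RefSeq gene names of GRCm38.p6, and 27509 of 55681 probes were named. A probe was kept if red was well above background on at least 4 of 8 arrays, and each gene was represented by its brightest probe on average. The 13981 genes were fitted with lmFit and eBayes, with Benjamini-Hochberg adjustment at a threshold of 0.05, after a test of the fit on simulated data. SE is the moderated standard error. All 8 arrays lay on 1 slide, and the number of arrays limits the precision.

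Replicate numbers, which are also slide columns, were examined as a possible pairing that the sample titles do not state. Deviations of same-numbered KO and WT arrays from their group means correlated at 0.138, 0.373, 0.257 and 0.304, each over 0.1. However, KO1 correlated best with WT4 and KO3 with WT2, so the numbers may not pair the samples. The fit with the replicate number as a block is an alternative. The design text calls the samples biological replicates. The members, the lists and the rule for named genes (list genes that passed, or the 2 with the smallest p; the most alike genes; the neighbours) were chosen with earlier results of these data known. Further list genes are named as values for their role.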

Additional observations from a re-analysis of the deposited data

Results flagged for a closer look

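In groups of 4 arrays, 1 array stood far from the other 3 in 5 of 42 groups checked, where chance gives about 1 in 20. The dimmer Cited2 probe read 0.62 on the WT4 array, against -0.04 for the nearest WT array. Cited4 read -0.36 on the WT1 array, against -0.10 for the nearest, on an array that compares WT1 RNA with itself. Capn6, a cap mesenchyme gene, read -0.30 on the WT1 array, against 0.11. Lhx1, a gene of forming nephrons, read -0.85 on the KO4 array, against -0.47, and 0.78 on the WT2 array, against 0.23. Cited1 and the brighter Cited2 probe had no such array in either group.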

How the results depend on the processing

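Cited1 was lower in KO in all 20 alternatives, from -2.78 to -2.43. All of them reuse the arrays on which Cited1 was selected, so nothing is read from that count. The settings that change only the probe filter or the block leave the Cited1 difference as it is. Cited1 moved by more than the replicate SD with the red channel alone (-2.43). It also did so with the red channel alone without WT1 and KO1 (-2.49), a setting added after the data were seen. With the red channel alone the brighter Cited2 probe read 0.65, the dimmer -0.73 and Cited4 0.90, and Itga8 turned to 0.53. Leaving out 1 array at a time gave -2.78 to -2.66 for Cited1, 0.03 to 0.27 for the brighter Cited2 probe, -0.10 to 0.19 for the dimmer and -0.04 to 0.07 for Cited4, and 83 to 345 genes and 6 to 9 cap mesenchyme genes that fell. The count of genes was 123 with the software's ratios, 0 with median centring (178 at an unadjusted p under 0.05), 1 with the red channel alone (111), 139 with offset 0, 246 without WT1 and KO1, and 556 with the replicate block. Without WT1 and KO1 it was 145 with the red channel alone, 65 with the software's ratios and 520 with the replicate block, settings added after the data were seen. Cap mesenchyme genes that fell numbered 0 with median centring and 0 with the red channel alone, and, without WT1 and KO1, 6 with the red channel alone and 5 with the software's ratios. The cause was not tested. With the block Meox1, Hif3a, Alas2, Hba-a1 and Umod (adjusted p = 0.0284) passed as well, and no other list gene changed its call. The signal over background limits the dimmer Cited2 probe, which was well above background in red on 7 arrays.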
